A study of Mus musculus with 6 samples.

Results

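Thyroid hormone signalling in the cochlear duct was followed through 7 genes, chosen by name for their place in the pathway: the nuclear receptors *Thra* and *Thrb*, the deiodinases *Dio2* and *Dio3*, the transporter *Slc16a10*, and the response genes *Klf9* and *Hr*. Of these 7 genes, 6 had a row among the 14865 genes of the table, and all 6 were among the 14455 genes tested. *Dio3* (ENSMUSG00000075707) had no row by symbol or identifier and was not analysed here, so no ratio of the deiodinases could be formed. RNA was taken from cochlear ducts of C57BL/6 mice at postnatal day 8 (P8) and sequenced in 3 libraries of *Gfi1*+/+ mice and 3 libraries of *Gfi1*cre/+ mice, in which Cre recombinase stands in place of 1 copy of *Gfi1*. Every *Gfi1*+/+ library was 1 mouse (2 cochleae) and every *Gfi1*cre/+ library was a pool of 3 mice (6 cochleae), so the spread between *Gfi1*cre/+ libraries is a spread between pools. The *Gfi1* promoter drives Cre in hair cells (HCs) and also in resident immune cells of the ear, and the whole cochlear duct was sequenced here, in which HCs are a minority.

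Thyroid hormone reaches cells through membrane transporters, mainly as the prohormone T4, which type 2 deiodinase (*Dio2*) converts to the active form T3 and type 3 deiodinase (*Dio3*) inactivates. T3 binds the receptors TRα (*Thra*) and TRβ (*Thrb*), which sit on DNA with retinoid X receptors, and which recruit corepressors without hormone and coactivators with it. In the rodent cochlea the hormone is needed before the onset of hearing for remodelling of the epithelium, for the tectorial membrane and for the maturation of HCs, and the local activity of both deiodinases sets its timing.

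Values are read counts divided by a size factor for each library, called normalized reads here. Recovered reads on genes ran from 13603908 to 19359753 per library, and the members rested on between 652 and 9257 reads each. *Gfi1* itself had 147, 160 and 152 normalized reads in *Gfi1*+/+ and 136, 130 and 139 in *Gfi1*cre/+, replicates 1 to 3, which is a count over all its exons. *Gfi1*+/+ replicate 1 stood apart on the first principal component (-44.0, against -0.30 to 16.2 in the other 5), with a summed neuron marker list of 7595 normalized reads against 971 to 2143 in the others. *Ddx3y*, on chromosome Y, was at 0 in all 3 *Gfi1*+/+ libraries and between 232 and 485 normalized reads in *Gfi1*cre/+, so genotype and the sex of the pups cannot be told apart. *Xist*, which marks female cells, had 7338 to 8138 normalized reads in *Gfi1*+/+ and 5359, 4987 and 2301 in *Gfi1*cre/+. The *Gfi1*cre/+ pools were therefore not male alone. Markers of HCs, supporting cells, otic mesenchyme and stria vascularis were detected, 6 of 6 in each list. In bulk RNA, fewer cells of a type and less RNA per cell cannot be told apart.

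Promoter windows were in the RefSeq table (GRCm38.p6) for 5 of the 7 genes, and *Thra* and *Hr* were the others. Shown are *Dio2*, the member whose genotypes did not overlap, and *Klf9* and *Slc16a10*. *Klf9* and *Slc16a10* are among the 4 members with one order of the *Gfi1*+/+ libraries, as is *Thrb*, whose windows are not printed. Each window runs from 250 bases before the annotated start to 50 after it, 5′ to 3′ on the gene's strand. Capitals mark matches on either strand to TATAAA (the TATA box), to TGACGTCA (the cAMP response element), to GGGCGG (the GC box) and to CCAAT (the CCAAT box). The receptor half-site AGGTCA was searched too.
*Dio2*, chr12:90738989-90739288, minus strand: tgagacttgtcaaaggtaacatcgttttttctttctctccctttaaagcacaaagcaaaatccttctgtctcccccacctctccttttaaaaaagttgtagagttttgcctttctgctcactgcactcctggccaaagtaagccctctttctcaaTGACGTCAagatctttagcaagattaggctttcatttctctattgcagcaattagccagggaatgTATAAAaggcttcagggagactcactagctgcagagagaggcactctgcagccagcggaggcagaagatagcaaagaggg
*Klf9*, chr19:23140976-23141275, plus strand: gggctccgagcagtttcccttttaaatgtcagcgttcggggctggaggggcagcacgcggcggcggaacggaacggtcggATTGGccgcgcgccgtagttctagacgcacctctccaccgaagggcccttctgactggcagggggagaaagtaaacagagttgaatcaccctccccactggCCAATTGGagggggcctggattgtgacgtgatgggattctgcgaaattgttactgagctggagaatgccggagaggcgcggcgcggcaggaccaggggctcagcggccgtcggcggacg
*Slc16a10*, chr10:40142205-40142504, minus strand: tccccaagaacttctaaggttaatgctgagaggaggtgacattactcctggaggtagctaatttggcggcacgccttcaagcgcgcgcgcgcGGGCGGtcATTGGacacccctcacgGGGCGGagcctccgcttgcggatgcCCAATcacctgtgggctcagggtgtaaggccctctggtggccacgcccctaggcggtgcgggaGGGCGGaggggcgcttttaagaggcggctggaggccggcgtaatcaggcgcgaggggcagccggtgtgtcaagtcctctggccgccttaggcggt

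The *Dio2* window held 1 cAMP response element, 95 to 88 bases before the start, and 1 TATA box, 30 to 25 bases before it. Over 32817 windows of the same length, 1.79% held the former and 13.6% the latter. *Klf9* held 3 CCAAT boxes, of which a pair overlaps on opposite strands, and *Slc16a10* held 2 CCAAT boxes and 3 GC boxes. At least 1 CCAAT box was found in 37.4% of the windows and at least 1 GC box in 35.6%. AGGTCA was in none of the 3 printed windows and in 1 of the 2 windows of *Thrb*, where 16.3% of all windows hold it. A match is a match of letters only.

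*Thra* (ENSMUSG00000058756, chromosome 11, positions 98740638 to 98769006 of GRCm38, plus strand) encodes TRα. With libraries always given in the order of their replicate numbers, its level was 2871, 2944 and 2828 normalized reads for *Gfi1*+/+ against 2799, 2924 and 2971 for *Gfi1*cre/+. The genotypes overlapped, with the highest and the lowest library both in *Gfi1*cre/+. The means were 2881 ± 58.8 in *Gfi1*+/+ and 2898 ± 89.0 in *Gfi1*cre/+ (SD, n = 3), a log2 fold change of 0.01 with a 95% interval from -0.11 to 0.12. *Thra* is read as 1 gene, so its hormone-binding product and its product that does not bind hormone are not separated. Its exons share 263 bases, or 5.70% of their length, with *Nr1d1* on the opposite strand, and the strand setting of the counting is not given in the sources used here.

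*Thrb* (ENSMUSG00000021779, chromosome 14, positions 17660261 to 18038090, plus strand) encodes TRβ, the receptor whose loss in mice and people impairs hearing. Its level was 949, 943 and 1103 normalized reads for *Gfi1*+/+ against 1068, 1098 and 952 for *Gfi1*cre/+. In each genotype 1 library differed from a close pair, replicate 3 in both cases, above the pair in *Gfi1*+/+ and below it in *Gfi1*cre/+. The log2 fold change was 0.06, with a 95% interval from -0.13 to 0.24, and with single libraries left out it ran from 0.02 to 0.13, the latter without *Gfi1*+/+ replicate 3.

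Per kilobase of exon, *Thra* exceeded *Thrb* in every library. The ratio of *Thrb* to *Thra* on that scale was 0.206, 0.200 and 0.243 for *Gfi1*+/+ against 0.238, 0.234 and 0.200 for *Gfi1*cre/+. *Thrb* thus made up between 16.6% and 19.6% of the summed level of the receptor genes. The *Thra* level includes its product that does not bind hormone, and exon lengths are unions of annotated exons. This is therefore not the share of TRβ among hormone-binding receptors. The mean ratio was 0.216 ± 0.0235 in *Gfi1*+/+ and 0.224 ± 0.0210 in *Gfi1*cre/+ (SD, n = 3). The log2 difference between the genotypes was 0.05 (exact permutation test, two-sided p = 0.9, where 3 libraries against 3 cannot go below 0.1). The ratio therefore differed less between genotypes than between the libraries of either, and without *Gfi1*+/+ replicate 2 the difference was -0.004.

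*Dio2* (ENSMUSG00000007682, chromosome 12, positions 90724552 to 90738438, minus strand), the selenoenzyme that makes T3 from T4, had the highest level of the members, also per kilobase of exon. It had 7284, 7024 and 7204 normalized reads in *Gfi1*+/+ and 8057, 7612 and 7984 in *Gfi1*cre/+, replicates 1 to 3. All 3 *Gfi1*cre/+ libraries lay above all 3 *Gfi1*+/+ libraries. The means were 7171 ± 132.9 and 7884 ± 238.6 (SD, n = 3), which is 9.90% higher in *Gfi1*cre/+ (log2 fold change 0.14, standard error 0.0542, 95% interval 0.01 to 0.26). The unadjusted p was 0.0327 and the adjusted p was 0.999 in limma's test, and an exact permutation test gave a two-sided p of 0.1, the smallest it can give with these libraries. In 19.4% of the genes tested the absolute log2 fold change was at least as large. Without *Gfi1*+/+ replicate 1, the library that stood apart, the log2 fold change was 0.15 (limma's test, unadjusted p = 0.038, adjusted p = 1.0). The unadjusted p was 0.09 in limma's test without *Gfi1*+/+ replicate 2, 0.117 without *Gfi1*cre/+ replicate 1 and 0.112 without *Gfi1*cre/+ replicate 3. The difference was thus larger than the spread between replicates but was not called after adjustment.

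Otic mesenchyme and spiral ligament genes were higher in some of the same libraries. Their summed list of 6 genes had 213087, 202475 and 224068 normalized reads in *Gfi1*+/+ and 235044, 206336 and 230988 in *Gfi1*cre/+, with overlapping genotypes. *Dio2* per 1000 normalized reads of this list was 34.2, 34.7 and 32.2 in *Gfi1*+/+ and 34.3, 36.9 and 34.6 in *Gfi1*cre/+. On this scale, chosen after the values were seen, the genotypes overlapped (log2 difference 0.07, exact permutation test, two-sided p = 0.4). The list total varied more within each genotype than *Dio2* did, and dividing by it brings that spread in. The overlap on this scale therefore cannot show the part of tissue makeup. The leading gene, *Col9a2*, made up 36.2% of the list, and without it the log2 difference was 0.08 (exact permutation test, p = 0.4). What remained was led by *Car3*, with 88448, 81835 and 64888 normalized reads in *Gfi1*+/+ and 84764, 69047 and 79067 in *Gfi1*cre/+. It was lowest in *Gfi1*+/+ replicate 3, where *Col9a2* was highest, so the list without *Col9a2* again leaned on 1 gene. Of the 6 genes, 5 were higher and 1 lower in *Gfi1*cre/+, with a median log2 fold change of 0.08 and 0 at an unadjusted p under 0.05 in limma's test. Bone and cartilage markers ran from 299797 to 421400 normalized reads in *Gfi1*+/+ and from 362630 to 388381 in *Gfi1*cre/+. Red blood cell markers, with 6 of 6 genes at an unadjusted p under 0.05 and 0 called in limma's test, ran from 29467 to 43827 in *Gfi1*+/+ and from 38314 to 66338 in *Gfi1*cre/+. Neuron markers were lower in 6 of 6 genes, with a median log2 fold change of -1.25 and 2 genes at an unadjusted p under 0.05. Their summed list had 7595, 2143 and 1301 normalized reads in *Gfi1*+/+ and 971, 1259 and 1600 in *Gfi1*cre/+. The genotypes overlapped, and *Gfi1*+/+ replicate 1 alone was far above the rest. Stria vascularis markers were higher in 4 of 6 genes, with 1 at an unadjusted p under 0.05 and 2 without overlap. They ran from 38437 to 40568 in *Gfi1*+/+ and from 40073 to 41788 in *Gfi1*cre/+. HC markers were lower in 4 of 6 genes, with 0 at an unadjusted p under 0.05 and 1 without overlap. Of all genes tested, 3.04% had an unadjusted p under 0.05 in limma's test and 7.52% did not overlap. The part of tissue makeup in the *Dio2* difference was not tested.

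**Figure D1:**
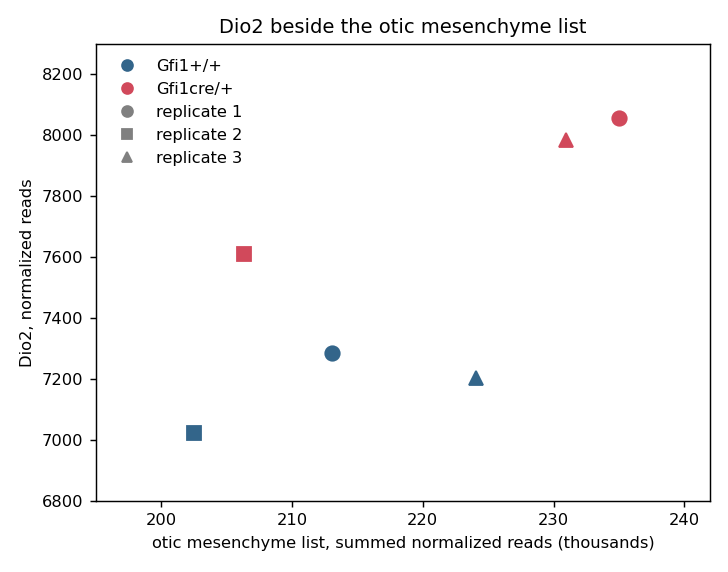
*Dio2* in normalized reads (y axis) against the summed otic mesenchyme and spiral ligament list (x axis, 1000 normalized reads), 1 point per library, colour by genotype and shape by replicate, with neither axis starting at 0. The *Gfi1*cre/+ points lie above the *Gfi1*+/+ points on the y axis and overlap them on the x axis, where replicate 2 is the lowest of each genotype.

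*Slc16a10* (ENSMUSG00000019838, chromosome 10, positions 40033532 to 40142258, minus strand) encodes MCT10, a transporter of T3 and aromatic amino acids. It had 817, 683 and 930 normalized reads in *Gfi1*+/+ and 774, 803 and 808 in *Gfi1*cre/+. All *Gfi1*cre/+ libraries fell inside the *Gfi1*+/+ range. The log2 fold change was -0.02, with a 95% interval from -0.25 to 0.21.

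*Klf9* (ENSMUSG00000033863, chromosome 19, positions 23141226 to 23168134, plus strand), a Krüppel-like transcription factor induced directly by T3, had 1465, 1320 and 1586 normalized reads in *Gfi1*+/+ and 1453, 1411 and 1619 in *Gfi1*cre/+. Replicate 3 was the highest library of both genotypes, and the genotypes overlapped. The log2 fold change was 0.04, with a 95% interval from -0.15 to 0.22.

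*Hr* (ENSMUSG00000022096, chromosome 14, positions 70552212 to 70573548, plus strand), the hairless corepressor that binds thyroid hormone receptors and is itself induced by T3, had 2646, 2470 and 3442 normalized reads in *Gfi1*+/+ and 2739, 2694 and 2879 in *Gfi1*cre/+. *Gfi1*+/+ replicate 3 was above all other libraries, and the *Gfi1*cre/+ libraries fell inside the *Gfi1*+/+ range. The log2 fold change was -0.03, with a 95% interval from -0.28 to 0.22, and it was 0.12 without *Gfi1*+/+ replicate 3.

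**Figure D2:**
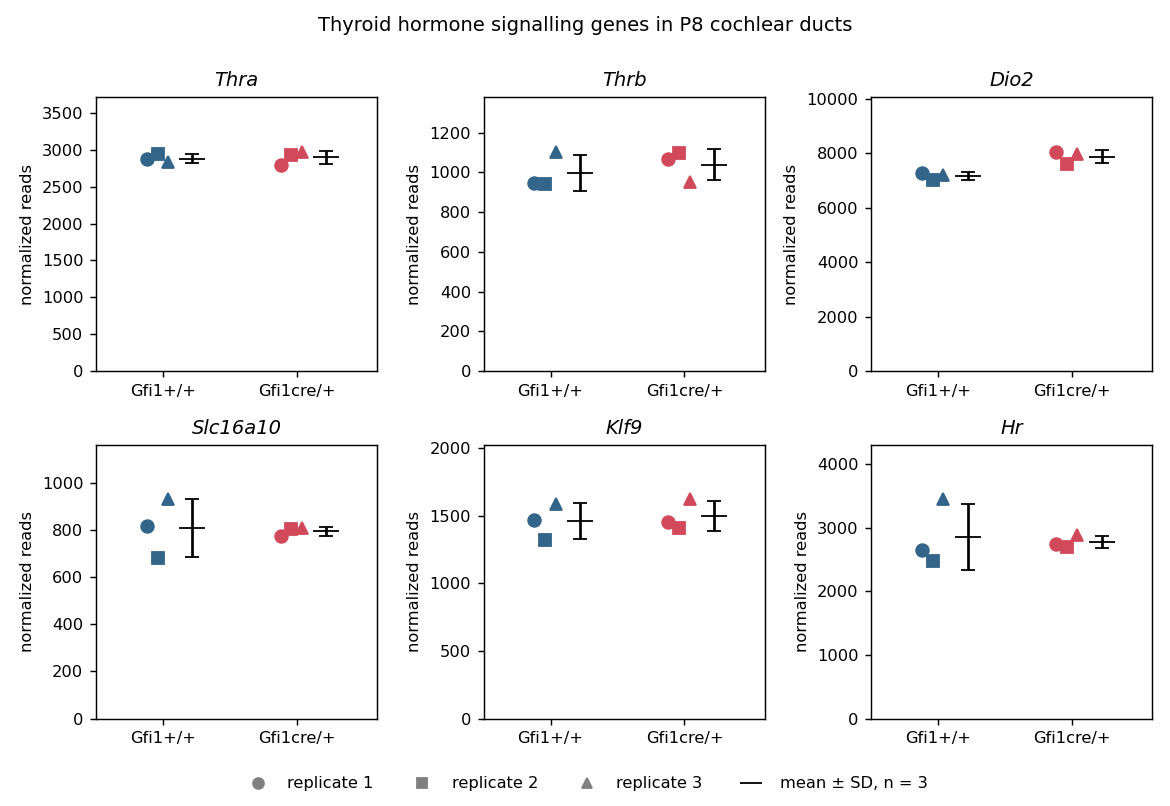
Normalized reads (y axis, from 0) of the 6 members in each library, by genotype (x axis), with shape by replicate and the bar giving the mean ± SD over 3 libraries. The genotypes separate for *Dio2* and overlap for the other 5 genes, and *Hr* and *Slc16a10* spread more widely in *Gfi1*+/+.

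Across the 6 members, 0 were called at an adjusted p under 0.05 in limma's test, which called 0.0277% of all genes tested. Neither edgeR nor DESeq2 on the recovered reads called a member. At an unadjusted p under 0.05 in limma's test there was 1 member, *Dio2*, and 3.04% of all genes. The genotypes did not overlap in 1 of 6 members, again *Dio2*, and in 7.52% of all genes. The median log2 fold change of the 6 members was 0.02 and that of all genes tested was 0.00, with quartiles of -0.06 and 0.06. With single libraries left out the median of the members ran from -0.016, without *Gfi1*cre/+ replicate 3, to 0.108, without *Gfi1*+/+ replicate 3. The intervals of the 5 other members reached from a fold of 0.83 to 1.18, so larger changes in these genes lay outside the 95% intervals of this fit.

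Levels of different genes were compared per kilobase of exon. *Dio2* came first, with 1233 ± 22.9 normalized reads per kilobase in *Gfi1*+/+ and 1356 ± 41.0 in *Gfi1*cre/+ (SD, n = 3), above 95.6% of the 14388 genes tested that had an exon length. *Thra* followed with 624 ± 12.7 and 628 ± 19.3, then *Hr* with 412 ± 74.8 and 400 ± 13.9, and *Klf9* with 303 ± 27.7 and 310 ± 22.9. *Thrb*, with 135 ± 12.3 and 140 ± 10.4, and *Slc16a10*, with 110 ± 16.9 and 108 ± 2.51, were the lowest and close to the middle of all genes, above 56.6% and 49.4% of them. Every neighbouring pair in this order was separate over the 6 libraries, narrowly so for *Thrb*, with a lowest library of 127.4, and *Slc16a10*, with a highest of 126.5. Exon lengths are the union of annotated exons, and transcripts that use a part of them make the level per kilobase an underestimate.

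**Figure D3:**
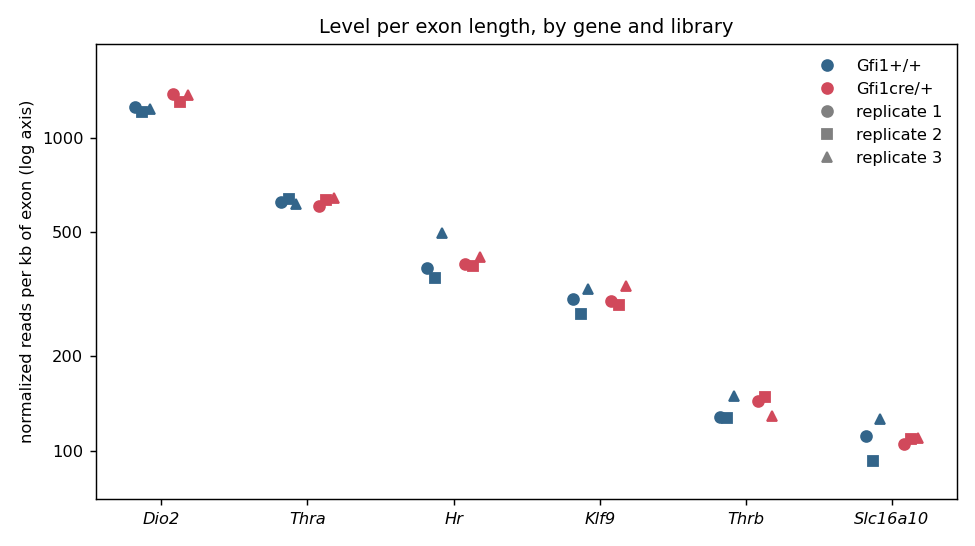
Normalized reads per kilobase of exon (y axis, log scale) for each member (x axis, in order of level), 1 point per library, colour by genotype and shape by replicate. The order *Dio2*, *Thra*, *Hr*, *Klf9*, *Thrb*, *Slc16a10* is the same in both genotypes, and *Thra* is over 4 times *Thrb* (4.66 ± 0.478 and 4.50 ± 0.445 times in *Gfi1*+/+ and *Gfi1*cre/+).

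The members differed in how much they varied between the *Gfi1*+/+ libraries. Each was 1 mouse, so differences between mice and between preparations cannot be told apart. In this genotype *Dio2* and *Thra* were among the steadiest genes, with an SD of log2(value + 1) over the 3 *Gfi1*+/+ libraries of 0.0268 and 0.0293, in the lowest 4.8% and 5.6% of the genes tested. *Hr* and *Slc16a10* had SDs of 0.253 and 0.224, above 85.0% and 80.9% of genes, and the median over all genes was 0.119. In the pooled *Gfi1*cre/+ libraries the SDs of *Hr* and *Slc16a10* were 0.0497 and 0.0337, against a median of 0.0737. Those of *Dio2* and *Thra* were 0.044 and 0.0446 there, larger than in *Gfi1*+/+ and above 25.2% and 25.6% of the genes tested. Each SD rests on 3 values.

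In *Thrb*, *Slc16a10*, *Klf9* and *Hr*, 4 of 6 members, *Gfi1*+/+ replicate 3 was the highest and replicate 2 the lowest of the *Gfi1*+/+ libraries. For *Thrb* this was narrow, with 949 and 943 normalized reads in replicates 1 and 2. Of all genes tested 16.6% had this order, as did 9 of 50 genes (18.0%) of the lists below. The same order was found in the nuclear receptor genes *Nr1d1*, with 557, 478 and 681 normalized reads, and *Nr1d2*, with 1049, 984 and 1090. *Nr1d1* and *Nr1d2* lie next to *Thra* and *Thrb*, respectively, and encode the repressors REV-ERBα and REV-ERBβ of the circadian clock. In *Gfi1*cre/+, *Nr1d1* had between 567 and 588 normalized reads and *Nr1d2* between 974 and 1045.

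The opposite order, with replicate 2 highest and replicate 3 lowest, was seen in *Crym* (1964, 3056 and 1322 normalized reads for *Gfi1*+/+), which encodes the cytosolic T3-binding protein μ-crystallin. It was also seen in *Ttr* (831, 1085 and 524), the carrier of T4, and in the tectorial membrane genes *Tecta* (5506, 9628 and 3299) and *Tectb* (52717, 58321 and 35886). Of all genes tested 16.3% had this order, as did 8 of 50 genes of the lists below. The summed supporting cell markers, which hold *Tecta*, followed it with 24429, 27084 and 23047 normalized reads, but without *Tecta* they had 18922, 17456 and 19747, the order of *Hr*. The summed otic mesenchyme markers also had the order of *Hr*, and without *Col9a2* replicate 1 was their highest library (144010, 128600 and 136684). The part of tissue makeup in these orders was not tested.

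**Figure D4:**
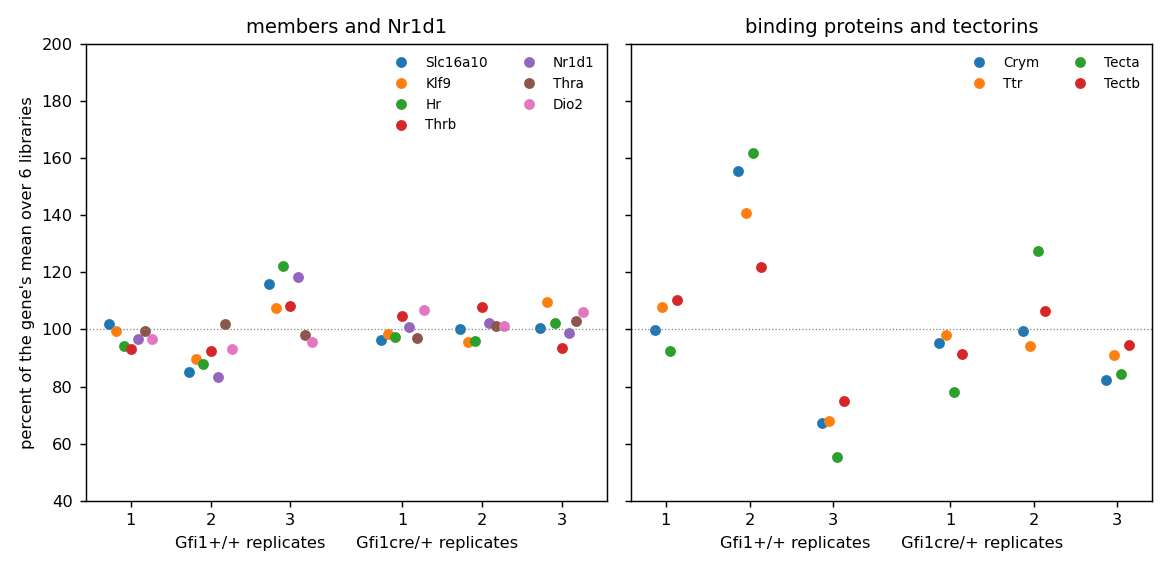
Each library as a percent of the gene's mean over the 6 libraries (y axis), by genotype and replicate (x axis), for the members with *Nr1d1* (left) and for *Crym*, *Ttr*, *Tecta* and *Tectb* (right), 1 point per gene and library. In *Gfi1*+/+ replicate 3 *Hr* is at 122.4% and *Slc16a10* at 115.9%, where the 4 genes on the right are at their lowest, and *Thra* stays between 96.9% and 102.8% in all 6 libraries.

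The rest of the pathway was read from 7 lists of 56 genes, of which 50 were listed and tested. None of the 50 was called at an adjusted p under 0.05 in limma's test, in edgeR or in DESeq2, and 0 had an unadjusted p under 0.05, where 3.04% of all genes did. The genotypes did not overlap in 2 genes, or 4.0%, against 7.52% of all genes. These were *Med24*, a subunit of the Mediator coactivator (1550 to 1564 normalized reads in *Gfi1*+/+ and 1593 to 1612 in *Gfi1*cre/+), and *Sepsecs*, an enzyme of selenocysteine synthesis named here after its values were seen (359 to 372 and 323 to 353). The median log2 fold change of the 50 genes was 0.01.

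Among the 5 transporter genes, with a median log2 fold change of 0.03, *Slco1c1*, which encodes the T4 transporter OATP1C1, had 7797, 5847 and 7585 normalized reads in *Gfi1*+/+ and 7931, 6808 and 8115 in *Gfi1*cre/+. Replicate 2 was the lowest library of each genotype. *Slc3a2* and *Slc7a5*, the subunits of an amino acid transporter that also carries thyroid hormones, had 2577 ± 187.4 and 2237 ± 369.0 normalized reads in *Gfi1*+/+ and 2637 ± 109.4 and 2253 ± 234.3 in *Gfi1*cre/+ (SD, n = 3).

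Of the 9 genes for hormone binding and deiodinase synthesis, 8 were tested, with a median of -0.07. *Crym* had 2114 ± 877.0 normalized reads in *Gfi1*+/+ and 1816 ± 178.5 in *Gfi1*cre/+, *Ttr* had 813 ± 280.6 and 728 ± 25.9, and *Eefsec*, the elongation factor for selenocysteine, had 598 ± 40.9 and 595 ± 9.73 (SD, n = 3). *Dio1* had no row and was not analysed here.

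All 10 receptor partners and corepressors were tested, with a median of 0.03. The corepressors *Hdac3* and *Ncor1* had 3039 ± 74.5 and 2809 ± 97.8 normalized reads in *Gfi1*+/+ and 3001 ± 71.0 and 2850 ± 164.8 in *Gfi1*cre/+ (SD, n = 3). All 10 coactivators were tested, with a median of 0.01. *Ep300*, a histone acetyltransferase, had 1855 ± 171.5 and 1969 ± 139.7, *Med24* had 1555 ± 7.98 and 1602 ± 9.22, and *Ncoa6* had 1347 ± 93.2 and 1372 ± 72.3 in *Gfi1*+/+ and *Gfi1*cre/+.

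Of 10 genes known to respond to the hormone in other tissues, 9 were tested, with a median of 0.01. *Mbp*, the myelin basic protein gene, had 18871, 3524 and 3400 normalized reads in *Gfi1*+/+ and 2508, 3252 and 4216 in *Gfi1*cre/+, so that *Gfi1*+/+ replicate 1 alone was far above the rest. The summed glia markers, which hold *Mbp*, were at 33277 in that library and between 11777 and 20708 in the others, and without *Mbp* they were at 14406 there and between 9269 and 16492 in the others. *Atp2a2*, the calcium pump of the endoplasmic reticulum, had 4707 ± 503.4 and 4456 ± 69.2, and *Stat5a* had 1247 ± 145.7 and 1254 ± 57.0 (SD, n = 3).

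The 6 cochlear genes linked to thyroid hormone were all tested and had a median of -0.01. *Tectb* had 48975 ± 11676 normalized reads in *Gfi1*+/+ and 46594 ± 3767 in *Gfi1*cre/+, *Tecta* had 6145 ± 3212 and 5761 ± 1601, and the stria and supporting cell potassium channel gene *Kcnj10* had 3792 ± 592.4 and 3731 ± 90.5 (SD, n = 3). Without *Gfi1*+/+ replicate 3, 10 of the 50 genes (20.0%) had an unadjusted p under 0.05 in limma's test, 5 higher and 5 lower in *Gfi1*cre/+, where 16.2% of all genes did. None of these 10 was called after adjustment, the lowest adjusted p being 0.0971 for *Ncoa3*.

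**Figure D5:**
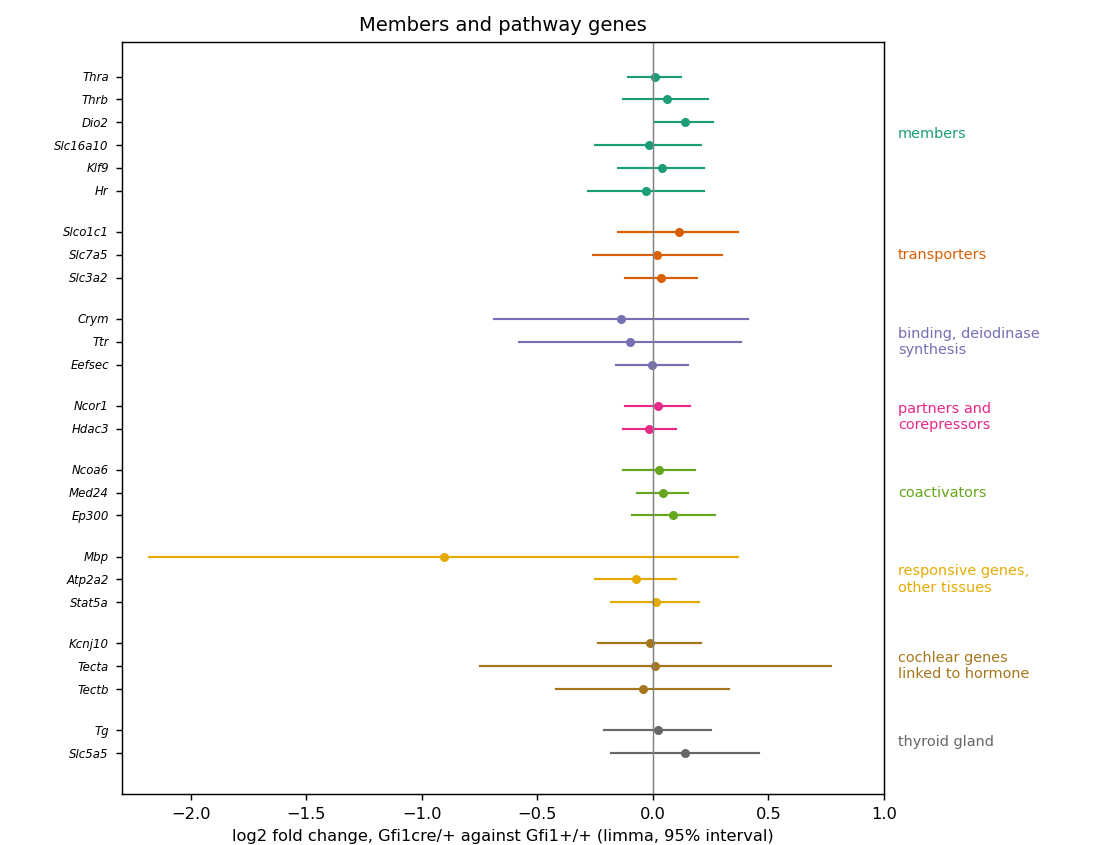
log2 fold change of *Gfi1*cre/+ against *Gfi1*+/+ (x axis) with its 95% interval from limma for the 6 members and 19 pathway genes, chiefly those of highest level in each list (y axis), coloured by list. The interval of *Dio2* lies above 0 (0.01 to 0.26) and those of the other genes drawn include 0, with *Mbp* at -0.91 the farthest from it.

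The genes whose pattern over the 6 libraries was most like that of a member were found by Pearson's r of log2(value + 1), with up to 3 of the highest of 14455 genes named for each, as a description without a test. For *Thra* these were *Klhl23*, *Dnajc21* and *Tmem72* (r from 0.982 to 0.996) and for *Thrb* they were *Dock9*, *Neurl4* and *Dpf2* (0.983 to 0.992). For *Dio2* they were *Cdo1*, *Pttg1ip* and *Cmpk2* (0.980 to 0.986). For *Slc16a10* they were *Kri1*, *Paqr9* and *Adamtsl2* (0.994 to 0.997), for *Klf9* they were *Acad11* and *Wrn* (0.994 and 0.981), and for *Hr* they were *Pde8a*, *Usp35* and *Sdc4* (0.988 to 0.998). With only 6 libraries, values over 0.8 were reached by from 1.63% of all genes for *Dio2* to 7.13% for *Hr*. All these genes share the same libraries and size factors.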

How the data were processed

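The 7 genes and the lists were chosen with earlier results of these data known. The authors made polyA libraries with the TruSeq kit, aligned paired-end reads to mm10 with TopHat, counted uniquely mapped reads on genes (HTSeq-count), and treated genes with 40 or more reads as expressed. Versions, annotation and strand setting are not given in the sources used here. The deposited signal per gene and library is described by the methods as quantile-normalized, but 100% of the values in each column were whole multiples of 1 step (within 0.006), so each is a count scaled by 1 size factor per library.

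Genes that reached 40 normalized reads in any library were compared on log2(value + 1), which understates changes of low genes, with limma (version 3.58.1, R 4.3.3; lmFit, eBayes with a trend), two-sided, Benjamini-Hochberg adjusted over 14455 genes. Fold changes are on this scale. The block by replicate number was an alternative only, as were edgeR (4.0.16) and DESeq2 (1.42.0) on recovered reads. Positions and exon lengths came from GENCODE M21 (GRCm38), which matched 14791 of the 14865 identifiers. The text names all 7 genes, the 3 genes of highest level and any with an unadjusted p under 0.05 in each pathway list, neighbours of members, and the 3 genes most like each member, except a few genes that are not reported here. The labels do not say that the libraries of a genotype shared a litter or a batch.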

Additional observations from a re-analysis of the deposited data

How the results depend on the processing

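*Dio2* kept its direction in the 13 other settings of the fit (log2 fold change 0.13 to 0.15, unadjusted p 0.00917 to 0.046, lowest adjusted p 0.358 in limma with array weights). It also did so in the 6 limma fits that each left out 1 library (0.12 to 0.16). There its lowest p was 0.0181 unadjusted and 0.208 adjusted, without *Gfi1*+/+ replicate 3. Its unadjusted p passed 0.05 without *Gfi1*+/+ replicate 2 (0.09), *Gfi1*cre/+ replicate 1 (0.117) or *Gfi1*cre/+ replicate 3 (0.112). No member was called in any of these 19 fits. With array weights, *Thra* turned to -0.002, *Slc16a10* to 0.112 and *Hr* to 0.094, the median of the members was 0.103, 10 pathway genes had an unadjusted p under 0.05 in place of 0, and 1666 of all genes did in place of 439. The cause was not tested. With single libraries left out, the log2 fold change ran from -0.01 to 0.033 for *Thra*, from 0.018 to 0.132 for *Thrb*, from -0.133 to 0.09 for *Slc16a10*, from -0.032 to 0.101 for *Klf9* and from -0.124 to 0.115 for *Hr*, with the median of the members from -0.016 to 0.108, the log2 difference of the receptor ratio from -0.004 to 0.138, the pathway genes with an unadjusted p under 0.05 from 0 to 10, and all genes called at an adjusted p under 0.05 from 0 (without *Gfi1*cre/+ replicate 3) to 48 (without *Gfi1*+/+ replicate 3), against 4. DESeq2 called 10 of all genes. Deviations from the group means correlated across genes at -0.094, 0.107 and -0.033 between libraries of like number, for replicates 1, 2 and 3. Between libraries of unlike number they correlated at -0.156 to 0.15. Like numbers thus gave no closer match, but deviations within a genotype are tied to each other, so these values cannot settle how the libraries were paired. With the replicate number as a block, *Dio2* stayed at 0.137 (unadjusted p 0.0429 in limma's test), the receptor ratio at 0.05 (exact test over 3 pairs, p = 1.0, which cannot go below 0.25) and the genes called at 4, so the block changed no call. The settings that need *Dio3* were not run. Each comparison rests on 3 libraries per genotype, single mice in one genotype and pools in the other.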

Other observations

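Of 6 thyroid gland genes, *Tg* (thyroglobulin) and *Slc5a5* (the sodium iodide symporter) were listed, and the other 4 were not analysed here. *Tg* had 158, 172 and 187 normalized reads in *Gfi1*+/+ and 185, 162 and 176 in *Gfi1*cre/+, which is 19.4 ± 1.62 and 19.6 ± 1.26 per kilobase of exon (SD, n = 3). *Slc5a5* had 343, 373 and 522 in *Gfi1*+/+ and 479, 423 and 442 in *Gfi1*cre/+, or 141 ± 32.8 and 153 ± 9.62 per kilobase, a level close to that of *Thrb*. Both were found in every library, and their genotypes overlapped. *Tg* shares 112 bases, or 1.26% of its exons, with an antisense gene that has no row, and the macrophage and lymphocyte gene *Sla* lies within it on the opposite strand without a shared exon base.

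*Slc26a5*, which encodes the outer hair cell motor prestin, had 386, 267 and 343 normalized reads in *Gfi1*+/+ and 324, 281 and 300 in *Gfi1*cre/+. The genotypes overlapped. It is known to respond to thyroid hormone in outer hair cells, and it was chosen for description after its values were seen.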
